A study of Homo sapiens with 6 samples.

Results

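The complement genes examined here numbered 9 and fall into 5 roles: C3 and C4b, the proteins from which the opsonic fragments are cut, C1ra, a protease of the first classical complex, Cfb, the protease of the alternative pathway, the membrane regulators Cd55, Cd46 and Cd59a, and the partner proteins C1qbp and Clu. They were chosen by name, with earlier results of these data known. All 9 were found as symbols among the 22989 genes of the count table. RNA was sequenced in 6 libraries. By the study's account they came from paclitaxel (PTX)-resistant breast cancer stem cells (BCSC) of MDA-MB-231, a human triple-negative breast cancer line, sorted for high aldehyde dehydrogenase activity. In 3 libraries the cells were labelled LINC00115 KD and carried a short hairpin RNA (shRNA) against this long non-coding RNA, and 3 libraries were labelled WT, where the study's text describes a control shRNA. Both groups were PTX-resistant, and no parental or untreated cells are part of the comparison. The study's text names 1 hairpin, sh115-2, for this comparison, while the labels number the KD libraries sh115-1 to sh115-3. Nothing says whether libraries came from separate cultures, so that p-values measure only the spread between these libraries.

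The table's genes carry mouse gene names, which conflicts with the human source given. Of its 22989 symbols, 16 equal a human symbol as written and 14422 apart from case. The species of the counted RNA was not tested. Of the 9 genes, 7 equal a human symbol apart from case, while C1ra and Cd59a are names of mouse genes. The notes of the submitters name hg38 and the study's methods name hg19, both human builds. For these reasons the symbols are printed as the table gives them and neither positions nor sequences are given. The table has 0 genes named LINC00115, so the knockdown could not be checked and every direction rests on the labels. Libraries held 36979221 to 38799331 counts. Vim, Cd44, Krt8 and Krt18 were abundant in all libraries, and Epcam and Pgr stayed at or under 5 counts. Esr1, the estrogen receptor gene, had 24 to 29 counts in WT and 82 to 105 in KD, in a line known as receptor-negative. Erbb2 had 592 to 689 counts in WT and 1029 to 1061 in KD, and Cdh1 had 1 to 3 and 22 to 31. In cells sorted for aldehyde dehydrogenase activity, Aldh1a1 had 8 to 17 counts in WT and 39 to 52 in KD. Aldh1a3 had 0 to 4 counts in all libraries. In bulk RNA, fewer cells of a type and less RNA per cell cannot be told apart.

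Complement is a cascade of plasma and cell-bound proteins that tags cells and debris for uptake and can punch pores into membranes. The classical pathway starts when C1q binds its target and activates the proteases C1r and C1s, which cut C4 and C2. The lectin pathway reaches the same step through the MASP proteases, and the alternative pathway uses factor B, bound to cut C3, to form the enzyme that cuts more C3. Most plasma complement is made in the liver, but epithelial and tumour cells also make components, and several of their genes are known to respond to interferons and other cytokines. Host cells protect themselves with membrane regulators that dissociate the C3-cutting enzymes or block the pore.

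Among the 7 genes tested, Cfb changed most, by 39.0-fold, while C3, on whose fragment factor B acts, rose by 17.6%. C4b rose 6.31-fold from a low level, C1qbp and Clu rose by 34.9% and 23.2%, and C1ra fell by 12.0%. Of the 3 membrane regulators, Cd46 did not pass the test, and Cd55 and Cd59a had too few counts to be tested. Of the 9 genes, 7 passed the expression filter, 5 of them were higher and 1 was lower at an adjusted p-value under 0.05 (edgeR's quasi-likelihood test), and Cfb and C4b were called higher at a fold change over 2. Over all 13497 genes tested, 36.7% were higher and 36.7% lower at the same p-value, and 10.2% were called higher and 9.98% lower. Among the 7 genes that passed the filter, 0 were called lower by edgeR or by DESeq2, and 1, C1ra, was lower at an unadjusted p under 0.05. The median log2 fold change of the 7 genes was 0.30, against −0.0061 over all genes tested.

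**Figure D1:**
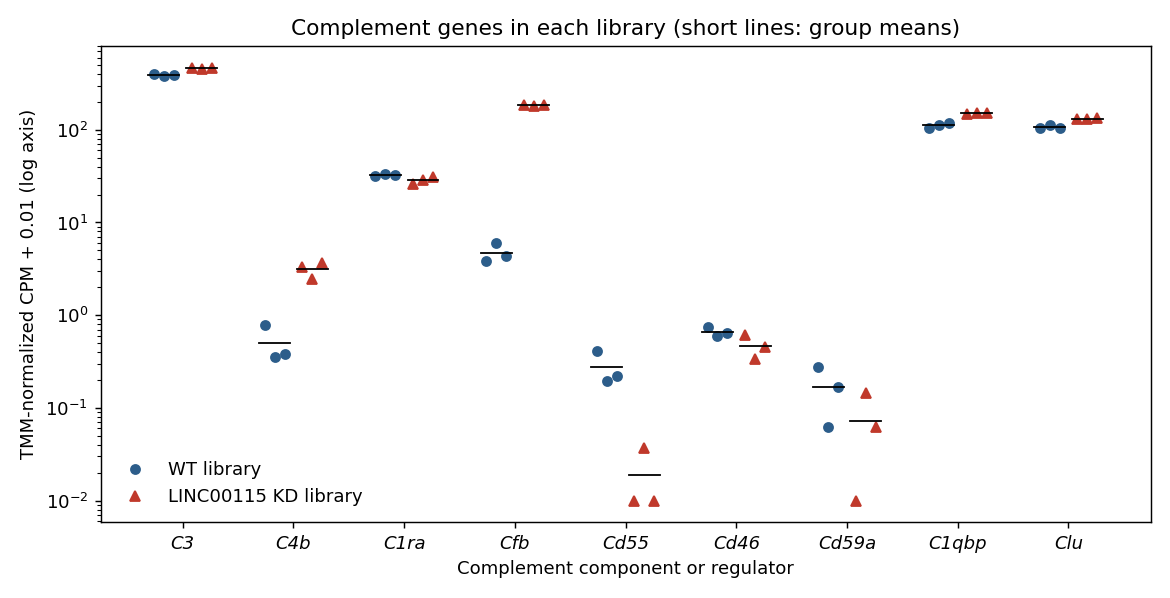
Normalized CPM plus 0.01 (log axis) of the 9 complement genes in each of the 3 WT libraries (circles) and 3 LINC00115 KD libraries (triangles), with group means as short lines. Cfb moved from 3.80 to 6.04 CPM in WT to 182 to 186 CPM in KD, C3 lay between 385 and 469 CPM in all libraries, and Cd55, Cd46 and Cd59a stayed under 1 CPM.

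Cfb encodes factor B, the serine protease of the alternative pathway. It had 143, 228 and 163 counts in the WT libraries and 7100, 6685 and 7073 in the KD libraries. Every KD library lay far above every WT library, and the KD libraries differed little among themselves. In CPM, the usual unit of counts relative to the library total, here scaled by the TMM method, the level was 4.72 ± 1.17 in WT and 184 ± 2.09 in KD (SD, n = 3 libraries each). The log2 fold change of KD over WT was 5.28 (standard error [SE] 0.08, edgeR's quasi-likelihood test, adjusted p = 1.27e-34), the 107th largest fitted increase among all genes tested. Over the other scalings, filters, tools and left-out libraries it stayed between 5.15 and 5.50.

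C3 is the central component of all pathways and the substrate of the enzyme that factor B forms. It had 14952, 14541 and 14744 counts in WT and 18141, 16483 and 17509 in KD. All KD libraries lay above the WT libraries, and the groups did not overlap. Its level was 391 ± 5.87 CPM in WT and 460 ± 10.1 in KD (SD, n = 3 each). The difference was small but exceeded the spread between libraries, with a log2 fold change of 0.23 (SE 0.03, edgeR's quasi-likelihood test, adjusted p = 7.07e-08).

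Since ratios within a library need no scaling, the counts of both genes were also divided by each other. There were 105, 63.8 and 90.5 counts of C3 for each count of Cfb in the WT libraries and 2.56, 2.47 and 2.48 in the KD libraries. The mean ratio was thus 34.5-fold lower in KD, with no overlap (two-sided exact permutation test, p = 0.1, the smallest p that 3 against 3 libraries allow). By contrast, the count ratio of Clu to C3 was 0.274 ± 0.0149 in WT and 0.287 ± 0.00523 in KD (SD, n = 3), and the groups overlapped (exact permutation p = 0.3).

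C4b encodes complement C4, which is cut by the classical and lectin proteases. It had 29, 13 and 14 counts in WT and 128, 89 and 138 in KD. All KD libraries lay above all WT libraries, although WT replicate 1 had more than the other WT libraries. The level was 0.495 ± 0.238 CPM in WT and 3.12 ± 0.626 in KD (SD, n = 3), a log2 fold change of 2.65 (SE 0.35, edgeR's quasi-likelihood test, adjusted p = 2.77e-08). With each library left out or under another scaling, filter or tool, the log2 fold change ranged from 2.45 to 3.12. The mouse genome carries a close copy, C4a, which was not analysed here, so reads of both genes may be counted together or lost.

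C1ra encodes C1r, the protease that activates C1s. It had 1202, 1254 and 1234 counts in WT and 1016, 1061 and 1174 in KD. All KD libraries lay below the WT libraries, with KD replicate 3 closest to them. The level was 32.6 ± 0.658 CPM in WT and 28.7 ± 2.33 in KD (SD, n = 3), a log2 fold change of −0.18 (SE 0.07, edgeR's quasi-likelihood test, adjusted p = 0.0189). This small decrease depended on single libraries: without KD replicate 1 the log2 fold change was −0.12 (adjusted p = 0.173) and without WT replicate 2 it was −0.17 (adjusted p = 0.0575).

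Cd55, the decay accelerating factor, is a lipid-anchored protein that dissociates the C3-cutting enzymes. It had 15, 7 and 8 counts in WT and 0, 1 and 0 in KD. The groups did not overlap, but the gene did not pass the expression filter. Summed over libraries, 30 counts stood against 1, a 30.0-fold lower level in KD with an exact 95% interval from 4.99-fold to 1226-fold, which covers counting error only. When no filter was applied, the log2 fold change was −4.46 (SE 1.39, edgeR's quasi-likelihood test, adjusted p = 0.00339), and Cd55 was then called lower.

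Cd46, a membrane cofactor for the breakdown of C3b that in mice is made mainly in testis, had 28, 22 and 24 counts in WT and 23, 12 and 17 in KD. The groups overlapped, and the log2 fold change of −0.51 (95% interval −1.50 to 0.48, adjusted p = 0.346, edgeR's quasi-likelihood test) did not pass the test, and the interval holds 0 as well as levels more than 2-fold lower. Cd59a, which blocks the pore at the step of C9, had 10, 2 and 6 counts in WT and 0, 5 and 2 in KD, and the groups overlapped. Its summed counts of 18 and 7 give a ratio of KD to WT of 0.388 (exact 95% interval 0.137 to 0.974, which covers counting error only). When no filter was applied, the log2 fold change of Cd59a was −1.30 (SE 1.22, edgeR's quasi-likelihood test, adjusted p = 0.4075) and did not pass. Together the 3 membrane regulators took 31 to 53 counts in a WT library and 18 to 23 in a KD library.

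C1qbp, a mainly mitochondrial protein that can bind the globular heads of C1q, had 3931, 4284 and 4486 counts in WT and 5729, 5595 and 5826 in KD. The groups did not overlap, and the level rose from 112 ± 7.28 to 151 ± 2.81 CPM (SD, n = 3), a log2 fold change of 0.43 (SE 0.04, edgeR's quasi-likelihood test, adjusted p = 7.76e-11). Clu, a secreted chaperone that binds the forming pore complex, had 3988, 4238 and 3904 counts in WT and 5113, 4818 and 5035 in KD. It rose from 107 ± 4.61 to 132 ± 0.684 CPM, a log2 fold change of 0.30 (SE 0.04, adjusted p = 8.23e-08 by the same test). Both increases were under 2-fold and larger than the spread between libraries.

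**Figure D2:**
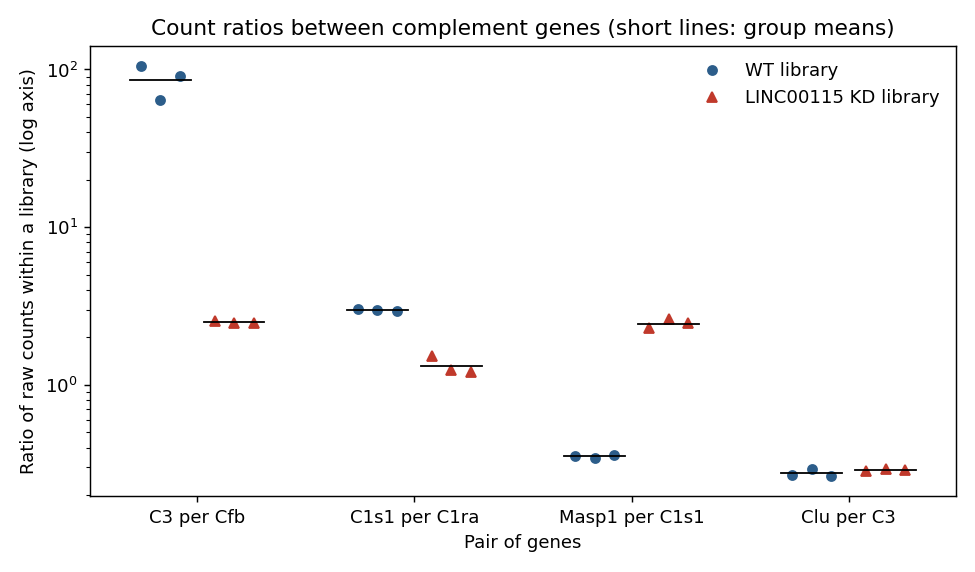
Ratios of raw counts between pairs of complement genes within each library (log axis), for 3 WT libraries (circles) and 3 LINC00115 KD libraries (triangles), with group means as short lines. Mean C3 per Cfb went from 86.3 in WT to 2.50 in KD, C1s1 per C1ra from 2.98 to 1.32, Masp1 per C1s1 from 0.352 to 2.45, and Clu per C3 overlapped between the groups.

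Another 51 complement genes were listed by role, of which 39 were in the table used here and 16 passed the filter. At an adjusted p under 0.05, 5 of the 16 had risen and 7 had fallen, and 3 were called higher and 4 lower, against 36.7% risen, 36.7% fallen, 10.2% called higher and 9.98% called lower over all genes tested. Their median log2 fold change was −0.094. Of the classical proteases, 3 were called lower, while Masp1 of the lectin pathway, Hc and Cd93 were called higher. Hc passed the filter through its KD libraries alone.

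Of these other genes, 4 tested ones belong to the classical pathway, and in contrast to C4b all 4 were lower and 3 were called lower. C1s1, which encodes the C1s protease that C1r activates, had 3657, 3721 and 3604 counts in WT and 1551, 1308 and 1408 in KD, a log2 fold change of −1.37 (SE 0.05, edgeR's quasi-likelihood test, adjusted p = 3.13e-22). Its copy C1s2 fell by 1.91 on the log2 scale, from 15.3 ± 0.583 to 4.06 ± 0.239 CPM (SD, n = 3), and C1rl, a C1r-like protease, fell by 1.40, from 16.4 ± 1.38 to 6.21 ± 0.227 CPM. C1s1 and C1s2, and C1ra and C1rb, are pairs of close copies in mice between which reads may be divided.

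C1s1 and C1ra were also compared within each library. In the WT libraries there were 3.04, 2.97 and 2.92 counts of C1s1 per count of C1ra, and in the KD libraries 1.53, 1.23 and 1.20, without overlap (exact permutation p = 0.1, the smallest possible). C1rb, the copy of C1ra, had 186, 277 and 117 counts in WT and 149, 104 and 160 in KD. These overlapped, and its log2 fold change of −0.49 (adjusted p = 0.0457, edgeR's quasi-likelihood test) did not pass with DESeq2's Wald test (adjusted p = 0.0788), without KD replicate 1 (0.0697), without KD replicate 2 (0.239), without WT replicate 1 (0.0560) or without WT replicate 2 (0.598). The 3 chains of C1q, made mainly by macrophages, had 0 to 7 counts in a library, and C2, the partner of C4, had 6, 0 and 0 counts in WT and 14, 10 and 4 in KD.

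In the lectin pathway, Masp1, a protease that starts this pathway and is also spliced to a form that activates factor D, rose. It had 1287, 1278 and 1295 counts in WT and 3551, 3395 and 3450 in KD, a log2 fold change of 1.43 (SE 0.05, edgeR's quasi-likelihood test, adjusted p = 3.75e-23). Counts of Masp1 per count of C1s1 went from 0.352, 0.343 and 0.359 in WT to 2.29, 2.60 and 2.45 in KD, a 6.95-fold higher mean. Masp2, the lectin protease that cuts C4, had 22, 35 and 50 counts in WT and 81, 59 and 37 in KD, which overlapped, and its log2 fold change of 0.72 did not pass the test (adjusted p = 0.0921), though it did without KD replicate 3 (0.98, adjusted p = 0.0350) and without WT replicate 3 (1.04, adjusted p = 0.0416). Fcna, a ficolin that recognises acetylated sugars, was lower, from 9.82 ± 0.584 to 5.10 ± 0.674 CPM (SD, n = 3), a log2 fold change of −0.95 that lay just under 2-fold and passed it only without KD replicate 3 (−1.05).

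**Figure D3:**
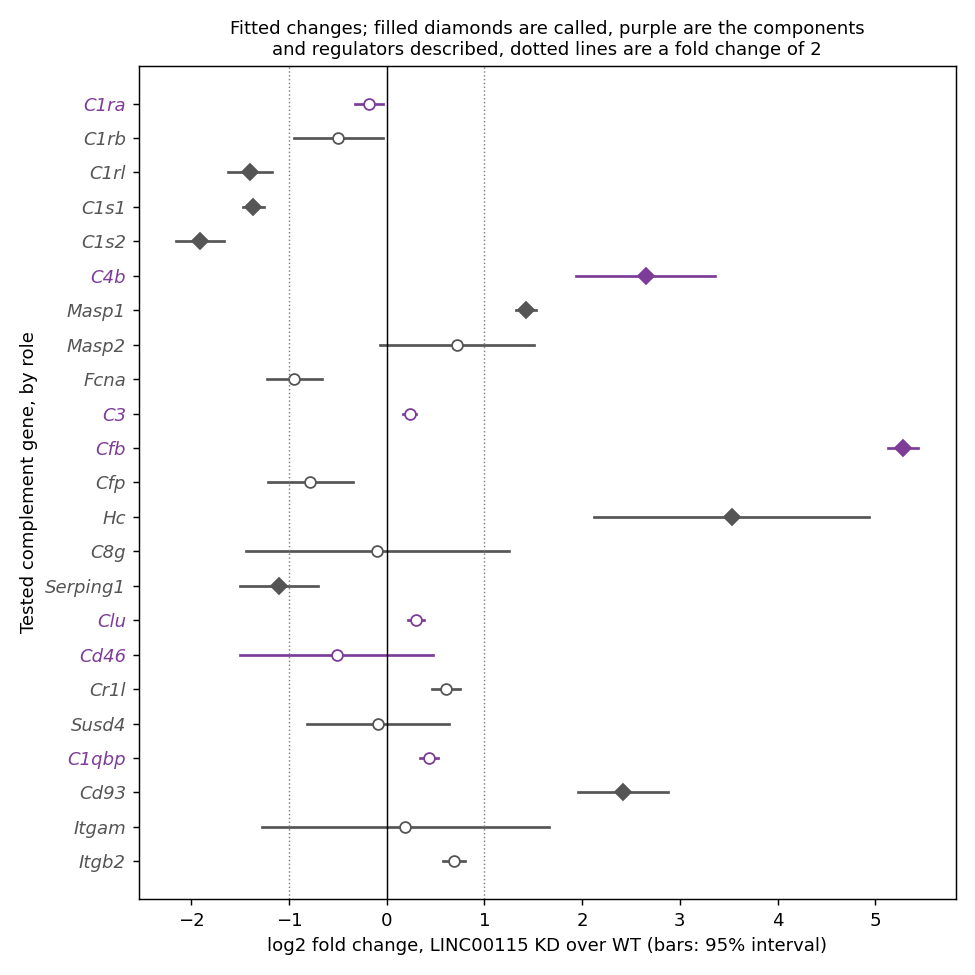
Fitted log2 fold changes of KD over WT with 95% intervals for the 23 complement genes tested, ordered from the classical proteases at the top through the lectin, alternative and terminal components to inhibitors, membrane regulators and receptors (filled diamonds, called; purple, the 7 members tested). Cfb (5.28), Hc (3.53), C4b (2.65), Cd93 (2.41) and Masp1 (1.43) lie above a fold change of 2, and C1s2, C1rl, C1s1 and Serping1 lie below it on the other side. Hc passed the filter through its KD libraries alone.

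Cfp went the other way from Cfb. It encodes properdin, which stabilises the enzyme made of C3b and factor B, and fell, with 142, 202 and 153 counts in WT and 100, 105 and 84 in KD (log2 fold change −0.78, SE 0.21, edgeR's quasi-likelihood test, adjusted p = 0.00141). Cfd encodes factor D, the protease that cuts factor B, and it had 0 counts in each WT library and 10, 0 and 6 in KD. A library at 0 could still hold up to 3 counts at this depth.

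Of the terminal components, Hc, the mouse gene of C5, had 4, 0 and 3 counts in WT and 31, 24 and 30 in KD and was called higher (log2 fold change 3.53, SE 0.69, edgeR's quasi-likelihood test, adjusted p = 2.75e-05). Without WT replicate 1 its log2 fold change was 4.13, and over the alternatives that gave a value it ranged from 2.97 to 4.13. C8g had 2 to 14 counts in a library and did not pass the test (log2 fold change −0.098, adjusted p = 0.900), and its sign changed with single libraries. C7 and C9 did not pass the filter, with 1 against 34 and 1 against 27 counts summed over 3 libraries, while C6 had 0 against 7. C7 was 33.9-fold higher by this ratio (exact 95% interval 5.70 to 1380). No terminal component in the table reached 1 CPM in any library.

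Among inhibitors, Serping1, which inactivates C1r, C1s and the MASP proteases, had 290, 187 and 238 counts in WT and 84, 113 and 136 in KD and was called lower (log2 fold change −1.10, SE 0.20, edgeR's quasi-likelihood test, adjusted p = 7.68e-06). The fold change was under 2 without KD replicate 1 (−0.92) and without WT replicate 1 (−0.94).

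Cr1l encodes Crry, the membrane regulator that in rodents holds C3 activation in check on most cells. It had 882, 833 and 942 counts in WT and 1315, 1360 and 1369 in KD, without overlap. It rose from 23.5 ± 1.43 to 35.7 ± 1.55 CPM (SD, n = 3), a log2 fold change of 0.60 (SE 0.07, edgeR's quasi-likelihood test, adjusted p = 2.19e-09). Susd4 had 37 to 74 counts in a library, with a log2 fold change of −0.090 (95% interval −0.81 to 0.63), and did not pass the test (adjusted p = 0.827). Cr2, a receptor of cut C3 known from B cells, had 4, 13 and 5 counts in WT and 0, 1 and 0 in KD and did not pass the filter.

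The anaphylatoxin receptors C3ar1, C5ar1 and C5ar2 had 0 to 12 counts in a library. Itgb2, the common chain of the integrin receptors for cut C3, rose from 48.0 ± 3.05 to 77.2 ± 3.77 CPM (SD, n = 3; log2 fold change 0.68), whereas its partner Itgam, known from myeloid cells, had 2 to 12 counts, with a log2 fold change of 0.19 (95% interval −1.28 to 1.66, adjusted p = 0.823, edgeR's quasi-likelihood test). Cd93, once described as a C1q receptor, was called higher, with 47, 50 and 33 counts in WT and 275, 189 and 233 in KD (log2 fold change 2.41, SE 0.23, edgeR's quasi-likelihood test, adjusted p = 1.35e-11).

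Summed over the 48 complement genes in the table, the level was 914 ± 4.53 CPM in WT and 1239 ± 14.6 in KD (SD, n = 3), 1.36-fold higher. Of the summed increases of single genes, 422 CPM, Cfb made up 42.5%, and of the summed decreases, −97.2 CPM, C1s1 made up 61.1%. Cfb took 0.516% ± 0.126 of all complement counts in WT and 14.9% ± 0.0659 in KD, and C3 took 42.8% ± 0.852 and 37.1% ± 0.562 (SD, n = 3). C1s1 went from 10.6% ± 0.172 to 3.04% ± 0.169. These shares count reads and are not corrected for gene length, so they compare groups and not genes.

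**Figure D4:**
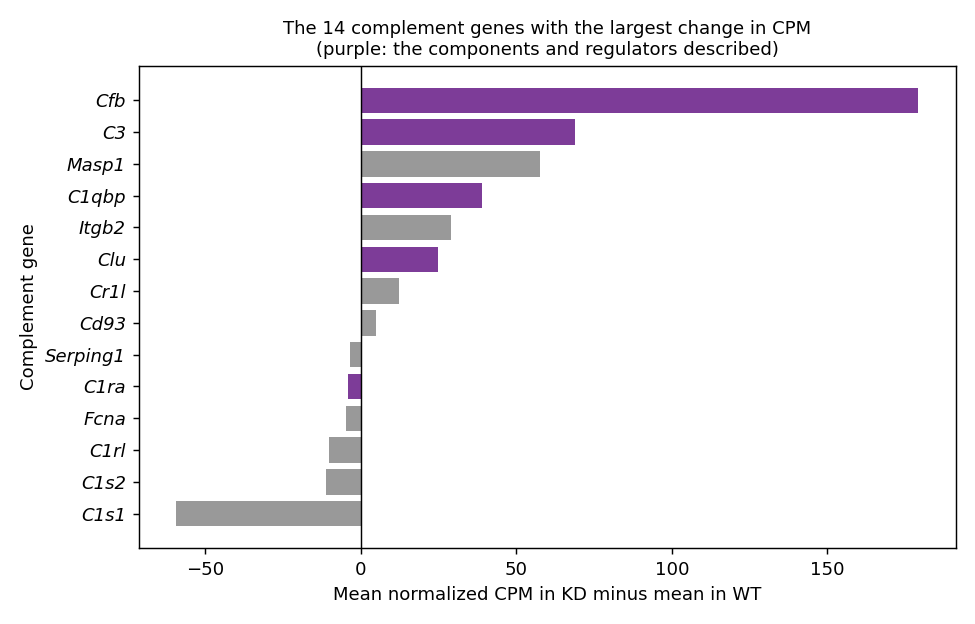
Mean normalized CPM in KD minus that in WT for the 14 complement genes with the largest change in either direction (purple, members; grey, other complement genes). Cfb gained 179 CPM, C3 68.9 and Masp1 57.6, and C1s1 lost most among the genes that fell.

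Markers of other cells that can make complement moved with the groups. All 10 lung epithelium markers were called higher in KD, 6 of them, Scgb1a1 and Sftpc included, were at 0 in every WT library, and their summed level went from 1.70 to 2.01 CPM in WT to 74.5 to 85.4 in KD. Of 10 kidney tubule markers, 9 were tested and 7 called higher, 6 were at 0 in every WT library, and the sum went from 9.24 to 9.64 CPM to 28.3 to 32.0. Cubn went the other way, with 315, 315 and 307 counts in WT and 251, 215 and 223 in KD. Its log2 fold change was −0.45 (edgeR's quasi-likelihood test, adjusted p = 0.00372). With a mean of 8.28 CPM in WT, Cubn carried the WT sum. These lists were chosen with the lung and kidney genes of the KD libraries already known. Their genes at 0 in WT passed the filter through KD alone and could only be called higher. The numbers called are therefore no test. Over all genes tested, 10.2% were called higher. In the same KD libraries Cfb was at 182 to 186 CPM and C4b at 2.42 to 3.63.

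In the other lists few genes passed the filter and could be called. They were 2 of 10 hepatocyte, 3 of 12 macrophage and leukocyte, 3 of 6 endothelium and 3 of 6 fibroblast markers. Over all genes tested, 10.2% were called higher and 9.98% lower. Of 10 hepatocyte markers, 2 were called higher, Hp (15 to 23 counts in WT, 336 to 377 in KD) and Cyp2e1 (0 and 26 to 49). In this list 5 were at 0 in every WT library, with sums of 0.531 to 0.980 CPM in WT and 10.2 to 11.3 in KD. Alb was at 0 or 1 count throughout. Of 12 macrophage and leukocyte markers, 3 were tested, 2 of these were called higher and 0 lower, with sums of 55.3 to 66.6 CPM in WT and 103 to 107 in KD. Those higher were Cd14 (502 to 684 counts in WT, 1867 to 1957 in KD) and Lyz2 (5 to 52 and 247 to 250). Cd68 had 1397 to 1925 counts in WT and 1639 to 1893 in KD, which overlapped. Csf1r had 0 to 3 counts, Adgre1 0 to 6 and Cd3e 0. Laptm5, which did not pass the filter, had 31, 21 and 6 counts in WT and 1, 5 and 10 in KD. Of 6 endothelium markers, Cdh5 alone was called higher and carried the sum from 0.715 to 1.19 CPM to 57.3 to 59.7, with Tek and Emcn at 0 to 2 counts. Of 6 fibroblast markers, 2 were called lower, Pdgfra and Dcn, and the sum went from 174 to 193 CPM to 75.7 to 77.8. Pdgfra, with a mean of 177 CPM in WT and 74.5 in KD, carried this sum. Col1a1, Col1a2, Col3a1 and Lum had 0 to 20 counts, and their groups overlapped. Cyp2e1, Lyz2 and Cdh5 passed the filter through their KD libraries alone. The part of cells of these types in the changes of the complement genes was not tested.

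**Figure D5:**
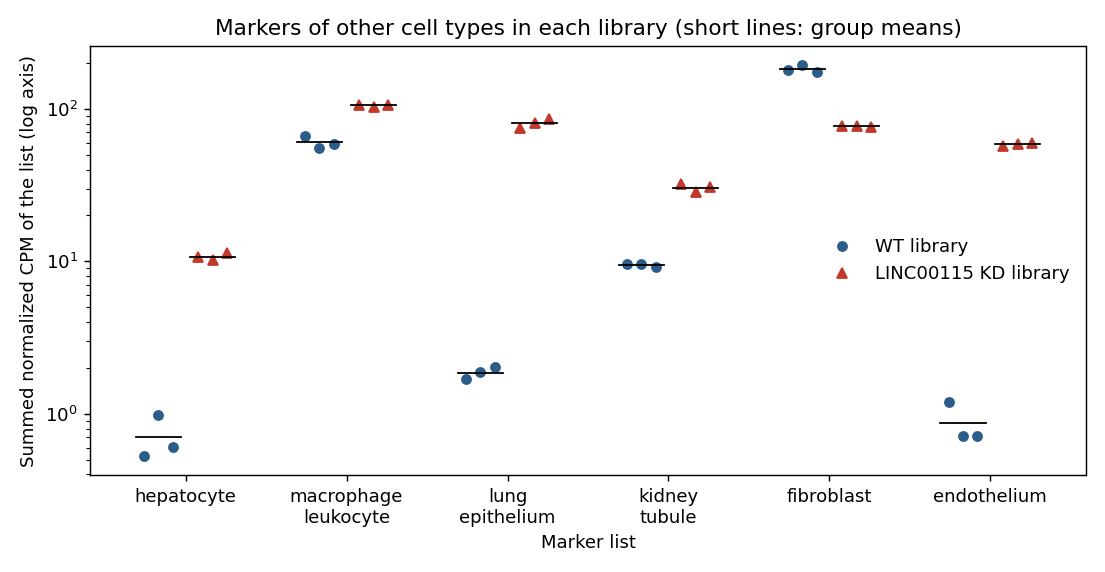
Summed normalized CPM (log axis) of 6 marker lists in each WT library (circles) and LINC00115 KD library (triangles), with group means as short lines. The lung epithelium sum was 74.5 to 85.4 CPM in KD against 1.70 to 2.01 in WT, and the fibroblast sum, carried by Pdgfra, was lower in KD.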

How the data were processed

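Total RNA of 3 LINC00115 KD and 3 WT samples was sequenced. The authors trimmed adapters and mapped reads with HISAT2 under default settings, and the submitters' processing notes also name featureCounts and DESeq2. They deposited raw counts per gene without normalization, and annotation and use of strand are not given in the sources used here, so that overlapping genes and close copies may be miscounted. The methods and the labels name different kits. Unused columns of per-sample values numbered 0.

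The expression filter was filterByExpr, with a minimum count of 10 and a minimum total of 15. Library totals over all genes were scaled by TMM, and edgeR 4.0.16 in R 4.3.3 gave quasi-likelihood tests. P-values were adjusted after Benjamini and Hochberg over the 13497 genes left. Genes were called at an adjusted p under 0.05 and a fold change over 2, as in the study's methods. Standard errors are the log2 fold change divided by the root of F. Intervals at 95% are from these errors or, for summed low counts, exact binomial (Clopper-Pearson). Library totals, 36979221 to 38799331, set the precision, and a count of 0 allows up to 3 counts. Chi-square per degree of freedom between libraries of a group was 3.88 to 7.80, above sampling noise. The pipeline was tested on simulated counts of this comparison (13497 genes, seed 11): of 200 genes changed 4-fold, 200 were recovered, with 1 false call. The changed genes were drawn only from well-counted ones, so recovery of genes with few counts, such as Hc and Cd46, was not tested. Fewer genes were changed there than were called in the data.

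The members and lists were chosen with earlier results of these data known. All 9 members are named, and of the other listed complement genes each one that passed the filter. Those under the filter and single markers were named after their values were seen. Alternatives were other scalings (DESeq2's size factors, upper quartile, library size), filters and thresholds, DESeq2 1.42.0, the replicate number as a block, and each library left out.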

Additional observations from a re-analysis of the deposited data

How the results depend on the processing

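Over 15 alternatives, Cfb and C4b were called higher in every one, and of 296 recomputed log2 fold changes of 23 genes, 283 kept their direction and their call, which takes the p and the fold threshold together. On the p threshold alone, C1ra, C1rb and Masp2 crossed under some alternatives. Without the fold-change threshold, 5 members were higher and 1 lower, other complement genes were 5 higher and 7 lower, and all genes 4952 higher and 4960 lower. Without the low-count filter, 1 member (Cd55) was called lower, and other complement genes were 7 higher and 5 lower. In that fit 22406 genes were tested, of which 1793 were called higher and 1570 lower. With at least 10 counts in every sample, 11966 genes were tested, 903 were called higher and 919 lower, and Hc, C8g and Itgam gave no value. With each library left out, the other complement genes called higher numbered 3 to 6, being 5 without KD replicate 3, 6 without WT replicate 1 and 5 without WT replicate 3. Near 0, 3 genes that did not pass the test changed sign: C8g ranged from −0.58 to 0.22, Susd4 from −0.42 to 0.14 and Itgam from −0.19 to 0.65 when 1 library was left out. With the replicate block, 2 members were called higher and 0 lower, C8g was at 0.041, and C1rb no longer passed (adjusted p = 0.0603, edgeR's quasi-likelihood test). Same-numbered libraries did not deviate together over the genes tested (correlations 0.014, −0.019 and −0.020), so no pairing by number was seen. A shared effect small beside the noise of single genes would not show in these correlations. Levels under 1 CPM are limited by depth.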
